A study of Mus musculus with 281 samples.

Results

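The intermediate cells (IMCs) of the stria vascularis were compared between *Slc26a4*-/- and *Slc26a4*+/+ mice, within the run dates that held both genotypes. IMCs were chosen by 4 marker genes, *Kcnj10*, *Met*, *Dkk3* and *Nrp2*. The estimated counts of a cell were scaled to the cell's total as counts per 1000000 counts (CPM), and the IMC score of a cell was its mean log2(CPM + 1) over these markers. A cell was taken as an IMC when this score led by 1 or more the same score over 4 markers of spindle cells, of root cells, of marginal cells and of cells with *Crhbp*, *Slc26a7*, *Vmo1* and *Otx2*. The rule took 53.7% of all cells of the series. Of these, 61 cells (21.7% of all cells) came from the 2 run dates with 5 or more IMCs of each genotype, and they were compared. The run of 2018 held 27 *Slc26a4*-/- and 15 *Slc26a4*+/+ IMCs, and the run of 2019 held 12 *Slc26a4*-/- and 7 *Slc26a4*+/+ IMCs. Among the cells of both runs no lead lay between 0.5 and 1.5. The smallest lead of a chosen cell was 1.68, and the largest lead of a cell left out was -0.18.

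IMCs are pigmented, melanocyte-like cells that lie between the marginal and the basal layer of the stria vascularis, the epithelium in the lateral wall of the cochlea that secretes endolymph. Their potassium channel KCNJ10 generates the endocochlear potential, the voltage that drives transduction in hair cells. *Slc26a4* encodes pendrin, which exchanges chloride for bicarbonate in spindle and root cells. Mice that lack pendrin are deaf, their endolymph spaces are enlarged, and they are used as a model of Pendred syndrome, in which hearing loss comes with a disorder of the thyroid.

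Cells were picked one at a time with a glass micropipette and profiled with Smart-Seq2, which amplifies polyadenylated RNA over its full length. All mice were male and on a 129S6 background according to the methods, so that the genotypes share both, and the labels give no other allele or treatment. In the run of 2018 the *Slc26a4*-/- cells were labelled with ages of P24, P25, P29, P31 and P44 (days after birth), and the *Slc26a4*+/+ cells with P23, P24, P32, P34, P40 and P42. In the run of 2019 both genotypes had cells of P29, P33 and P34. A further 23 *Slc26a4*+/- IMCs of the run of 2019 and 67 *Slc26a4*+/+ IMCs of other run dates are given side by side with these, without a test. The *Slc26a4*+/- IMCs were labelled P26, P28 or P33, and the *Slc26a4*+/+ IMCs of other run dates from P22 to P32. These ages do not match those of the cells compared.

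The labels name no mouse, and cells of 1 mouse are not replicates. The difference within a run date was therefore described as the log2 ratio of mean CPM, *Slc26a4*-/- over *Slc26a4*+/+, with 1 CPM added to each mean, and carries no test. For a test, the cells of 1 genotype, 1 run date and 1 age were summed into an age group, since cells of different ages come from different mice. This gave 8 *Slc26a4*-/- and 9 *Slc26a4*+/+ age groups of 1 to 11 cells, compared with edgeR's quasi-likelihood test with the run date as a term and Benjamini-Hochberg adjustment. How many mice an age group holds is unknown, so the p-values measure the spread between age groups. Both descriptions cover the 7389 genes whose mean over the genotypes was 10 CPM or more in each run date, and a gene was called when its adjusted p was under 0.05.

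The markers that chose the cells are given as a description. *Kcnj10* had a mean of 4269.6 CPM in *Slc26a4*-/- and 3761 CPM in *Slc26a4*+/+ IMCs of the run of 2018, and of 2774 and 3279 CPM in the run of 2019. *Nrp2*, a receptor of semaphorins and growth factors, had means of 4498 against 2445 CPM and of 2087 against 1121 CPM. *Met*, the receptor of hepatocyte growth factor, and *Dkk3*, a secreted glycoprotein, differed by less than 2-fold in both runs. The *Slc26a4*+/+ means of 2018 include 3 cells, described below, with 0, 8.83 and 131.6 CPM of *Kcnj10* and little *Met* and *Nrp2*. The 4 markers summed to a mean of 15793 CPM in *Slc26a4*-/- and 14143 CPM in *Slc26a4*+/+ cells of 2018. Without these 3 cells the *Slc26a4*+/+ mean of that sum was 16205 CPM, so that the direction in 2018 depends on them. The targeted gene checks little in these cells. *Slc26a4* had a mean of 1.23 CPM in *Slc26a4*-/- and 0.722 CPM in *Slc26a4*+/+ IMCs of the run of 2018, and of 3.66 and 3.47 CPM in the run of 2019. The counts used here take the gene as a whole. Its level in the spindle and root cells of these runs is not given here. Each direction below therefore rests on the genotype labels.

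**Figure D1:**
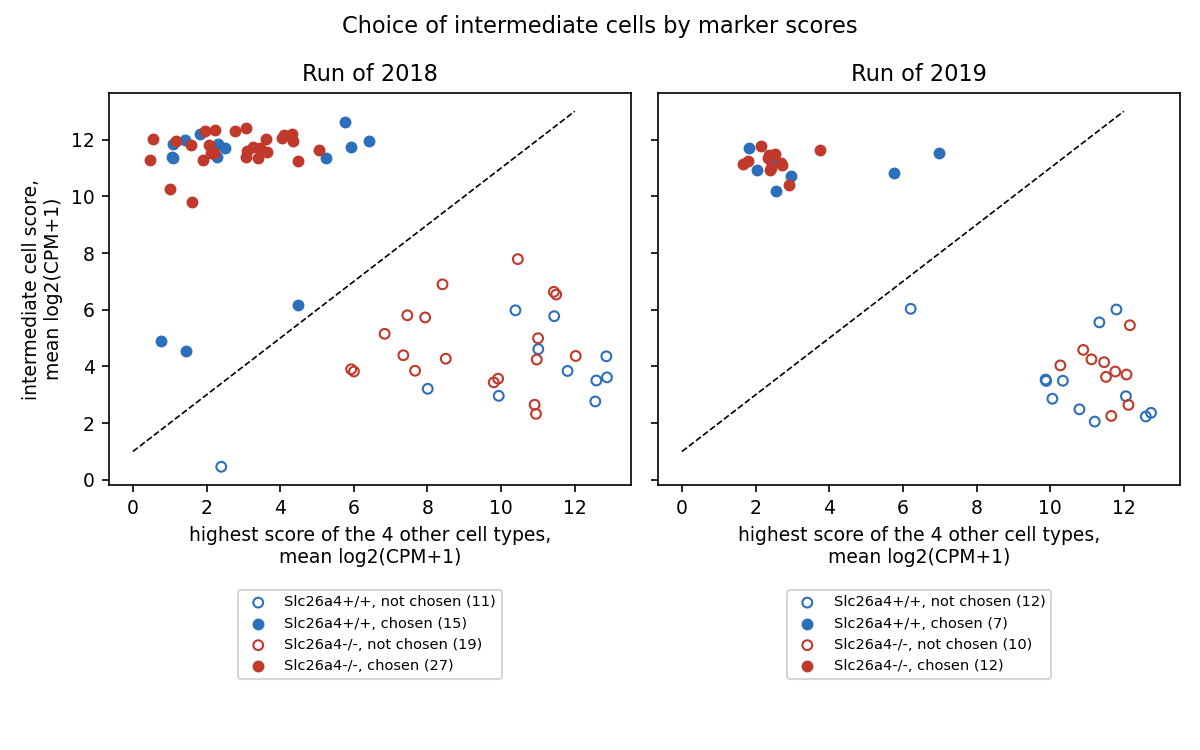
IMC score of each cell of the 2 runs (y axis, mean log2(CPM + 1) of 4 markers) against the highest of the 4 other scores (x axis, same unit), 1 panel for each run, coloured by genotype. The chosen cells lie above the line, and 3 *Slc26a4*+/+ cells of the run of 2018 lie below an IMC score of 8.

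Of the 61 cells, 3 stand apart, all *Slc26a4*+/+ cells of the run of 2018 with an IMC score under 8. At P23, 1 cell carried 83644 CPM of 8 neutrophil markers and 36652 CPM of 9 macrophage markers, and had the smallest lead. Of these 9, *Cd68*, *C1qa*, *C1qb*, *C1qc* and *Aif1* were at 0 in it, so that the sum came from the others. At P34, 1 cell carried 22590 CPM of 5 fibrocyte markers and 8.83 CPM of *Kcnj10*. At P40, 1 cell carried 40689 CPM of 5 red cell markers and was listed at 0 for *Kcnj10*, and its score came from *Dkk3* at 16487 CPM. Calls that are lost without them and the medians of gene lists are also given without them. Median depth was 655962 estimated counts in *Slc26a4*-/- and 1270910 in *Slc26a4*+/+ cells of the run of 2018, and 3940870 and 1831850 in the run of 2019. The 67 *Slc26a4*+/+ IMCs of other run dates had a median of 952111 counts and as few as 10134, and 49 of them reached 200000. Their IMC scores went down to 3.05, and none of them was left out. With each cell thinned to 200000 counts, the median number of genes detected was 4532 against 3750 in the run of 2018, where 2 *Slc26a4*+/+ cells were too shallow, and 5988 against 4401 in the run of 2019. Over all genes the median difference of mean log2(CPM + 1) was 0.60 and 0.58, whereas the median log2 ratio of mean CPM was 0.03 and -0.08. Of the other cell types, 5 pericyte markers reached 1000 CPM in 7 of 27 and 2 of 12 *Slc26a4*-/- cells and in none of the 15 and 7 *Slc26a4*+/+ cells, with *Pdgfrb* and *Kcnj8* at 0 in all *Slc26a4*-/- cells. Without the 3 cells, fibrocyte markers reached 1000 CPM in 3 of 27 *Slc26a4*-/- and in 0 of 12 *Slc26a4*+/+ cells of the run of 2018, and in none of the run of 2019. Markers of marginal cells summed to between 17.3 and 935 CPM (median 147.5 CPM) in *Slc26a4*+/+ and to between 0.196 and 35.1 CPM (median 13.4 CPM) in *Slc26a4*-/- cells of the run of 2019. In the run of 2018 their medians were 30.5 and 37.1 CPM. The part of depth, genes detected and these markers in the results was not tested.

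In IMCs of both runs 470 genes (6.36% of those measured) were 2-fold or more higher in *Slc26a4*-/- cells, and 429 (5.81%) were 2-fold or more lower. This balance depended on the scale, and with the difference of mean log2(CPM + 1) the shares were 17.3% higher and 1.77% lower. Within a single run the numbers were larger, 1745 higher and 1513 lower in 2018, and 1505 and 1398 in 2019, and 590 genes passed 2-fold in opposite directions. Over the age groups edgeR called 19 genes higher (0.257%) and 5 lower (0.0677%) in *Slc26a4*-/- IMCs, while 6.31% of genes had an unadjusted p under 0.05. Of the called genes, 18 of the higher and all 5 of the lower were also past 2-fold in both runs, the exception being *Ctsb*. Age group values did not overlap in either run for 30 genes that were higher (0.406%) and 5 that were lower (0.0677%). No gene passed edgeR's test of a difference in the genotype effect between the runs, with 4.45% of genes at an unadjusted p under 0.05. In either run alone edgeR called 0 genes, with 489 and 442 at an unadjusted p under 0.05 in 2018 and 2019, whereas limma and DESeq2 were run on both runs together. The balance of the calls depended on the method: DESeq2 called 2.77% of genes higher and 0.826% lower, and limma on mean log2(CPM + 1) called 3.79% and 0.311%. It also depended on single age groups, with 41 higher without the *Slc26a4*+/+ group P23 of 2018, 30 without P42 of 2018 or P33 of 2019 and, for lower genes, 11, 9 and 8 without the *Slc26a4*+/+ groups P24 and P23 of 2018 and P29 of 2019, and 3 and 2 without the *Slc26a4*-/- groups P29 and P33 of 2019.

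**Figure D2:**
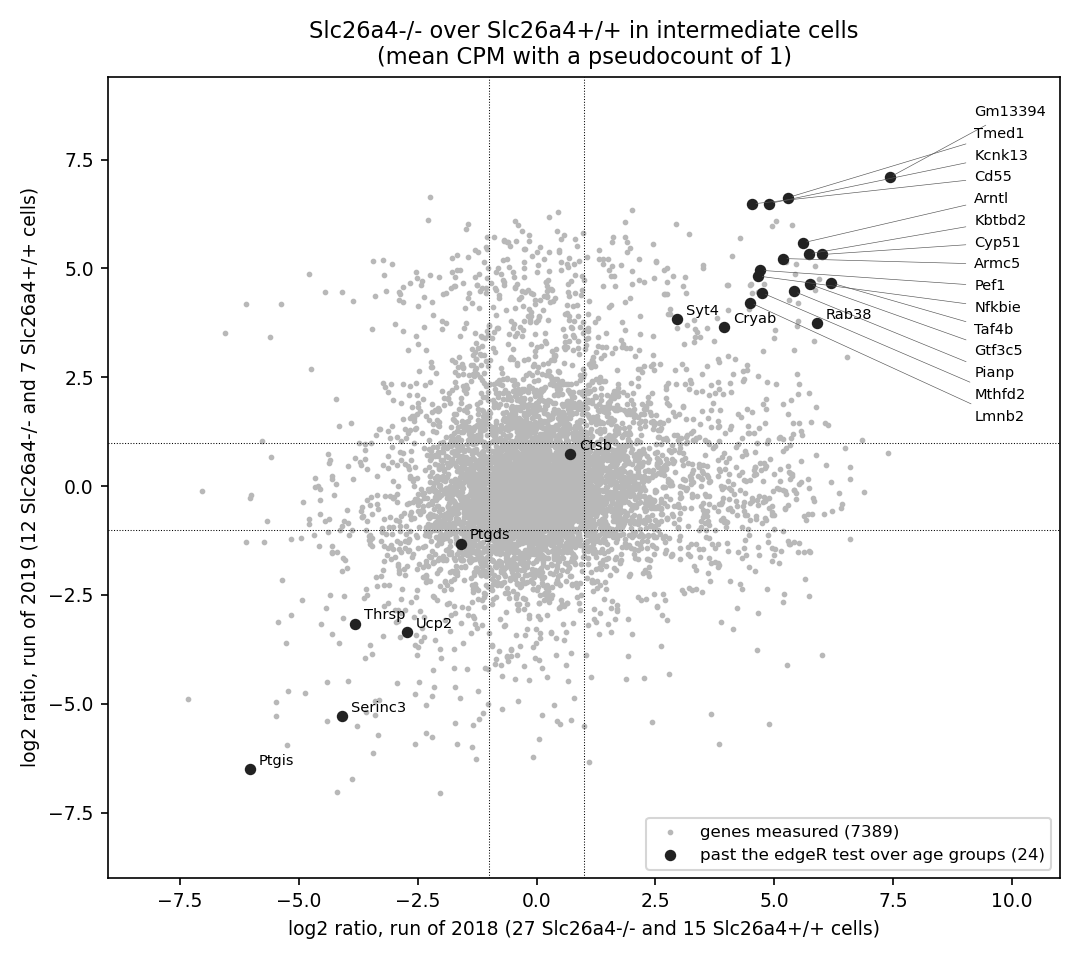
Log2 ratio of mean CPM, *Slc26a4*-/- over *Slc26a4*+/+ with 1 CPM added, in the run of 2018 (x axis) and of 2019 (y axis) for the 7389 genes, with called genes named. The 19 called genes that were higher lie to the upper right and the 5 that were lower to the lower left.

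The 19 genes called higher differed widely in abundance, and those found in many cells are given first. *Syt4*, a synaptotagmin of secretory vesicles (chr18:31437808-31447406), stood at 345, 996, 678, 926 and 1716 CPM in the *Slc26a4*-/- age groups of 2018 in order of age, and between 55.7 and 259.1 CPM (median 109.7 CPM) over the 6 *Slc26a4*+/+ groups. In the run of 2019 it stood at 2396, 2413 and 3745 CPM in the *Slc26a4*-/- and at 82.4, 339.8 and 125.8 CPM in the *Slc26a4*+/+ groups. All *Slc26a4*-/- groups were above all *Slc26a4*+/+ groups of their run. The edgeR log2 fold change was 3.31 (SE 0.48, adjusted p = 2.13e-04), and *Syt4* was called in all 12 other settings that kept both runs. The *Slc26a4*+/+ IMCs of other run dates, however, had a mean of 859 CPM, close to the 893 CPM of *Slc26a4*-/- cells of 2018, and the *Slc26a4*+/- cells had 539 CPM.

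*Cryab*, the small heat shock protein αB-crystallin (chr9:50751325-50756636), was at 921, 509, 1061, 1074 and 1576 CPM in the *Slc26a4*-/- age groups of 2018 and between 0 and 118.7 CPM (median 61.1 CPM) in the *Slc26a4*+/+ groups. In the run of 2019 the values were 828, 1364 and 2245 CPM against 0.599, 163.6 and 112.6 CPM. The groups did not overlap in either run, with a log2 fold change of 3.88 (SE 0.81, edgeR adjusted p = 0.0218), and the adjusted p was between 1.19e-10 and 0.0550 over 12 other settings. All 39 *Slc26a4*-/- cells had 10 or more counts of it, against 6 of 15 and 4 of 7 *Slc26a4*+/+ cells. *Slc26a4*+/+ IMCs of other run dates had 92.8 CPM, and *Slc26a4*+/- cells had 560.4 CPM, between the genotypes.

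*Rab38*, a small GTPase that carries pigment enzymes to the melanosome (chr7:88430273-88491572), was at 175.2, 202.6, 69.1, 289.7 and 182.6 CPM in the *Slc26a4*-/- age groups of 2018 and between 0 and 4.48 CPM (median 0 CPM) in the *Slc26a4*+/+ groups. In 2019 it was at 141.5, 262.7 and 142.6 CPM against 0, 49.5 and 0 CPM, so that 1 *Slc26a4*+/+ group, P33, carried most of that genotype's counts. It was called at an edgeR adjusted p of 0.0261, and this was between 3.19e-07 and 0.0990 over 12 other settings. *Slc26a4*+/+ IMCs of other run dates had 14.8 CPM and *Slc26a4*+/- cells 61.4 CPM. *Ctsb*, the lysosomal protease cathepsin B, was the most abundant of the genes called higher, at means of 8268 against 5047 CPM in 2018 and 11256 against 6787 CPM in 2019. Its age groups overlapped in the run of 2018, and its log2 fold change of 0.79 (SE 0.19) passed narrowly, with an edgeR adjusted p of 0.0435, or 0.0529 without the 3 cells that stand apart and between 0.0197 and 0.476 over 12 other settings.

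*Cd55*, decay-accelerating factor, which protects cells from complement, was found almost only in *Slc26a4*-/- cells (chr1:130439027-130462744). In 2018 it was at 1.11, 35.4, 22.9, 0.267 and 35.8 CPM in the *Slc26a4*-/- groups and at most 0.127 CPM in a *Slc26a4*+/+ group. Levels in 2019 were 73.1, 103.7 and 71.2 CPM against 0 in each *Slc26a4*+/+ group, which is at least 447-fold higher, with 3 counts over the *Slc26a4*+/+ cells as the floor. Cells with 10 or more counts numbered 6 of 27 and 10 of 12 in *Slc26a4*-/- mice, 0 of 15 and 0 of 7 in *Slc26a4*+/+ mice, 0 of 67 in *Slc26a4*+/+ IMCs of other run dates and 2 of 23 in *Slc26a4*+/- mice. The edgeR adjusted p was 0.0173, and between 9.73e-06 and 0.0731 over 11 other settings.

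**Figure D3:**
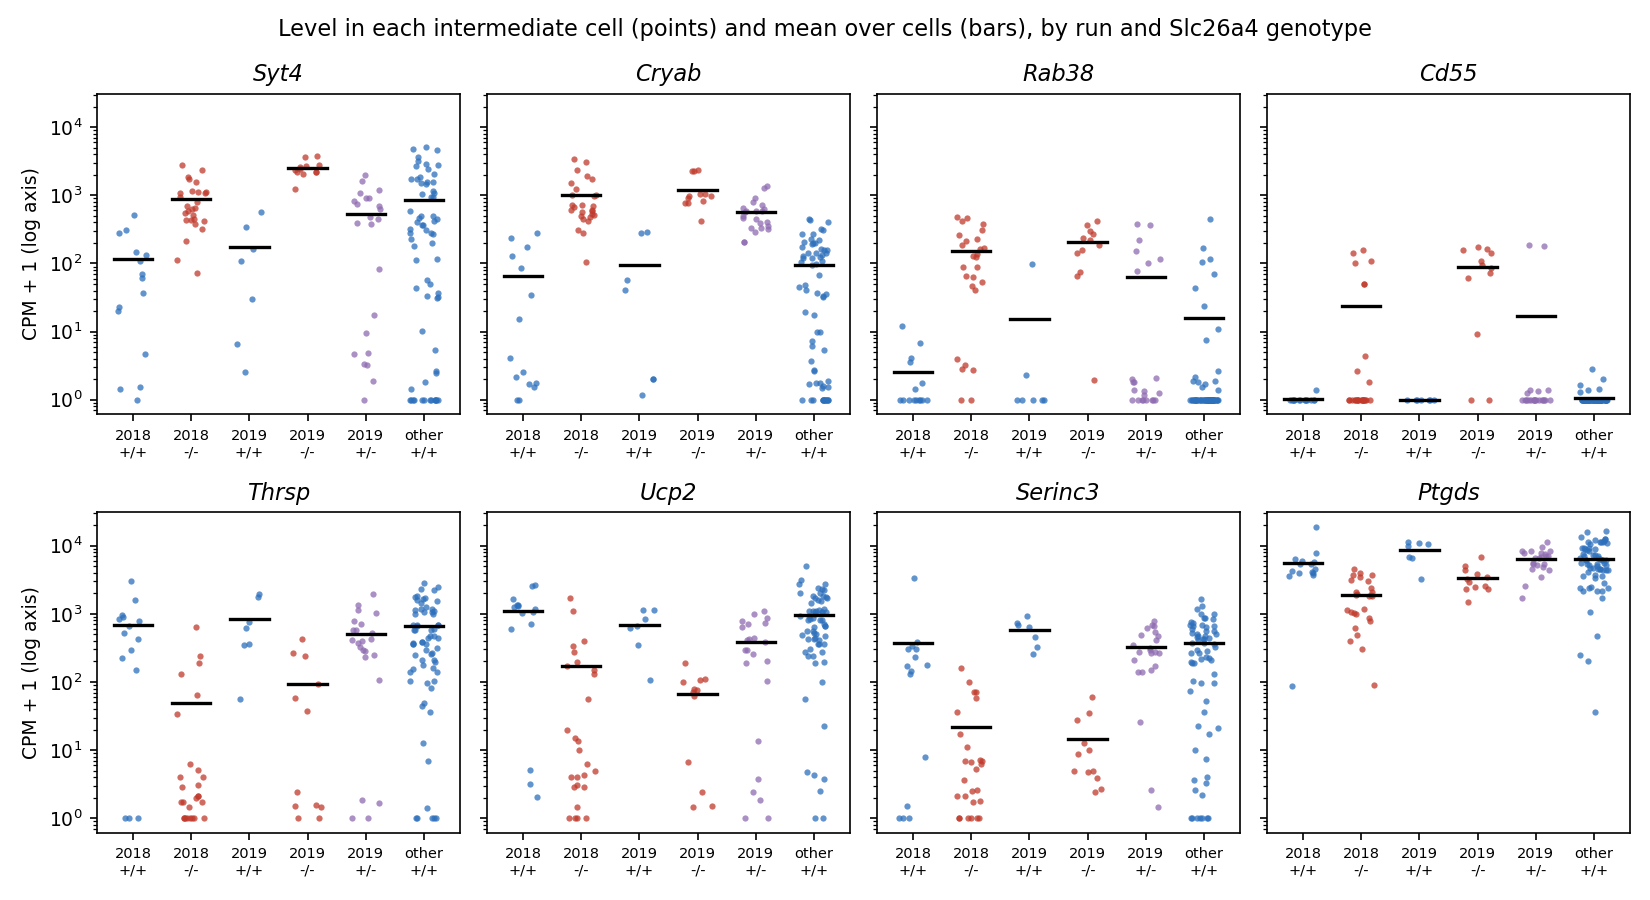
Level in each IMC (points, CPM + 1 on a log axis) and mean over cells (bars) of 4 genes called higher and 4 called lower in *Slc26a4*-/- cells, by run and genotype, with *Slc26a4*+/- cells and *Slc26a4*+/+ cells of other run dates beside them. *Cryab* was detected in all *Slc26a4*-/- cells, and *Syt4* in *Slc26a4*+/+ cells of other run dates reached the level of *Slc26a4*-/- cells.

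The genes called lower in *Slc26a4*-/- IMCs include the separate synthases of prostaglandin D2 and of prostacyclin, a target of thyroid hormone and a mitochondrial carrier. *Thrsp*, a thyroid hormone responsive regulator of fatty acid synthesis (chr7:97412938-97417730), was at 0.982, 6.35, 97.4, 22.4 and 33.1 CPM in the *Slc26a4*-/- groups of 2018 and between 376 and 1796 CPM (median 645 CPM) in the *Slc26a4*+/+ groups. The run of 2019 gave 167.4, 46.2 and 0 CPM against 1143, 697 and 726 CPM. The groups did not overlap in either run, and the log2 fold change was -4.44 (SE 0.85, edgeR adjusted p = 0.0119). The adjusted p was between 5.53e-07 and 0.230 over 12 other settings, the highest where age groups were split by collection code. *Slc26a4*+/+ IMCs of other run dates, at 664 CPM, and *Slc26a4*+/- cells, at 512 CPM, lay near the *Slc26a4*+/+ means of 693 and 837 CPM.

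*Ucp2*, a carrier of the inner mitochondrial membrane (chr7:100493337-100502020), was at 53.6, 352, 51.7, 556 and 14.5 CPM in the *Slc26a4*-/- groups of 2018 and between 513 and 1571 CPM (median 1035 CPM) in the *Slc26a4*+/+ groups. These overlapped only in that the *Slc26a4*-/- group P31 lay above the *Slc26a4*+/+ group P40, at 513 CPM. That P40 group held 1 cell at 1025 CPM and 1 of the cells that stand apart, at 2.23 CPM. In 2019 *Ucp2* was at 89.2, 40.1 and 109.4 CPM against 721, 622 and 717 CPM, with no overlap. The log2 fold change was -2.82 (SE 0.58, edgeR adjusted p = 0.0172), and *Slc26a4*+/+ IMCs of other run dates had 975 CPM.

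*Serinc3*, a membrane protein of the serine incorporator family (chr2:163623272-163645131), was at 65.9, 19.6, 15.004, 2.04 and 19.2 CPM in the *Slc26a4*-/- groups of 2018 and between 72.3 and 1679.7 CPM (median 183.1 CPM) in the *Slc26a4*+/+ groups, the highest being P40. Levels in 2019 were 4.51, 23.02 and 3.91 CPM against 775, 572 and 442 CPM. The edgeR adjusted p was 0.0187. Without the 3 cells that stand apart the *Slc26a4*+/+ mean of 2018 fell from 369 to 180.99 CPM and the adjusted p was 0.214, which ends the call and is the highest over 12 other settings, the lowest being 5.13e-09. *Slc26a4*+/+ IMCs of other run dates had 367 CPM and *Slc26a4*+/- cells 328 CPM.

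*Ptgds*, the synthase of prostaglandin D2 and 1 of the abundant transcripts of these cells (chr2:25466709-25470046), was at 2758, 1819, 1369, 3396 and 1508 CPM in the *Slc26a4*-/- groups of 2018 and between 3732 and 11863 CPM (median 4999.6 CPM) in the *Slc26a4*+/+ groups. The run of 2019 gave 4069.8, 2573 and 5092 CPM against 8555, 8389 and 8582 CPM. All *Slc26a4*-/- groups were below all *Slc26a4*+/+ groups of their run. The log2 fold change was -1.21 (SE 0.27, edgeR adjusted p = 0.0230), with an adjusted p of 0.1000 without the 3 cells and between 0.00281 and 0.1000 over 12 other settings. *Ptgis*, the synthase of prostacyclin, had 10 or more counts in 0 of 27 and 0 of 12 *Slc26a4*-/- cells, against 3 of 15 and 3 of 7 *Slc26a4*+/+ cells, 3 of 23 *Slc26a4*+/- cells and 13 of 67 *Slc26a4*+/+ cells of other run dates. Its means were 64.7 and 91.2 CPM in *Slc26a4*+/+ cells (edgeR adjusted p = 0.0188), and some *Slc26a4*+/+ groups were at 0.

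Most of the other genes called higher were at or near 0 in *Slc26a4*+/+ cells of both runs, so that their calls rest on which cells had any counts. Each of *Arntl*, *Kbtbd2*, *Armc5*, *Tmed1*, *Cyp51*, *Pef1*, *Gtf3c5*, *Mthfd2*, *Lmnb2*, *Pianp*, *Kcnk13*, *Taf4b* and *Nfkbie* had 10 or more counts in 0 of 15 and 0 of 7 *Slc26a4*+/+ cells. *Arntl*, which encodes the clock factor BMAL1, had them in 5 of 27 and 8 of 12 *Slc26a4*-/- cells and was at means of 47.4 and 67.9 CPM (edgeR adjusted p = 0.0172). In 2018 it was at least 288.4-fold higher than the *Slc26a4*+/+ cells, which had no count of it. By age group it was at 0, 10.4, 3.72, 163.4 and 171.2 CPM in 2018, so that P31 and P44 carried it there.

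*Tmed1*, a cargo receptor between the endoplasmic reticulum and the Golgi, had 10 or more counts in 13 of 27 and 10 of 12 *Slc26a4*-/- cells, at means of 87.3 and 169.998 CPM against 1.26 and 0.728 CPM. *Armc5* and *Kbtbd2*, adaptors of cullin-3 ubiquitin ligases, had them in 10 and 8 of 27 and in 9 and 7 of 12 *Slc26a4*-/- cells. Low values in *Slc26a4*+/+ cells were not shared by the other run dates for several of these genes. There the *Slc26a4*+/+ mean was 79.8 CPM for *Tmed1*, 60.2 CPM for *Armc5*, 45.7 CPM for the calcium-binding protein gene *Pef1* and 41.9 CPM for *Gtf3c5*, a subunit of transcription factor TFIIIC. The *Slc26a4*-/- means of these genes were 87.3, 63.7, 35.03 and 52.4 CPM in 2018 and 169.998, 66.6, 30.1 and 23.9 CPM in 2019. Run date and genotype cannot be told apart for cells of other run dates, which held no *Slc26a4*-/- IMCs.

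For the remaining genes of this kind the other run dates were low as well or lay in between. Some cells of the other run dates were shallow, as given above, and the part of depth in numbers of cells with 10 or more counts was not tested. *Taf4b*, a subunit of the general transcription factor TFIID, had 10 or more counts in 3 of 27 and 4 of 12 *Slc26a4*-/- cells and in 0 of 67 *Slc26a4*+/+ cells of other run dates. *Nfkbie*, an inhibitor of NF-κB, had them in 4 of 27, 4 of 12 and 0 of 67. *Pianp*, a transmembrane ligand found in neural tissue, was at 0 in all *Slc26a4*+/+ cells of both runs and had them in 10 of 27, 6 of 12 and 1 of 67. *Lmnb2*, lamin B2 of the nuclear envelope, had them in 5 of 27, 4 of 12 and 2 of 67. *Kcnk13*, a two-pore domain potassium channel, had them in 8 of 27, 7 of 12 and 5 of 67, and in 0 of 23 *Slc26a4*+/- cells. *Mthfd2*, an enzyme of mitochondrial folate metabolism, had them in 5 of 27, 3 of 12 and 5 of 67. Of these, *Pianp* passed with an edgeR adjusted p of 0.0173, whereas *Nfkbie* passed with 0.0495 and *Mthfd2* with 0.0391. With each of the 17 age groups left out in turn, *Nfkbie* passed in 4, *Mthfd2* in 5 and *Gtf3c5* in 9 of 17 fits. *Syt4*, *Gm13394*, *Cyp51*, *Tmed1*, *Arntl*, *Kbtbd2*, *Armc5*, *Cd55*, *Pef1*, *Pianp*, *Thrsp* and *Ucp2* were called whichever of the 17 age groups was left out.

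The gene with the largest ratio in both runs was *Gm13394*, annotated as a processed pseudogene on chromosome 2 (GRCm38, GENCODE M21, chr2:28933610-28934609, minus strand). Its transcript is a near-identical copy of that of *Gapdh* (chr6:125161715-125166467, minus strand), the glycolytic enzyme, and differs from it at 1 of 1000 bases. The difference is C346A, where positions count from the 5′ end of the *Gm13394* transcript, the copy's base stands first and the parent's last. The stretches are shown because so few bases separate the counts of both genes, and the capital marks the difference:
Gm13394: agggtggagccaaaCgggtcatcatctcc
Gapdh: agggtggagccaaaAgggtcatcatctcc
*Gm13394* was at 222.4, 135.2, 255.99, 250.997 and 339 CPM in the *Slc26a4*-/- groups of 2018 and at most 1.29 CPM in a *Slc26a4*+/+ group. In 2019 it was at 323, 115.9 and 309 CPM against 0.275, 0 and 1.23 CPM. Cells with 10 or more counts numbered 23 of 27 and 10 of 12 in *Slc26a4*-/- mice, 0 of 15 and 0 of 7 in *Slc26a4*+/+ mice, 0 of 67 in *Slc26a4*+/+ mice of other run dates and 7 of 23 in *Slc26a4*+/- mice. The edgeR adjusted p was 4.41e-04. Of the counts given to the pair, the median share given to *Gm13394* was 40.1% and 30.8% in *Slc26a4*-/- cells, 0 in both sets of *Slc26a4*+/+ cells and 0.137% in *Slc26a4*+/- cells, where the highest was 36.5%. *Gapdh* itself was at 456 against 556 CPM in 2018 and 592 against 1436 CPM in 2019. The division of reads between copies that differ at 1 base is uncertain, and whether the transcript of chromosome 2 was present was not tested.

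A second such pair moved the other way. *BC002163*, a processed pseudogene on chromosome 16 (chr16:42955631-42955949, plus strand), matches *Ndufs5*, a subunit of respiratory complex I (chr4:123712710-123718202, minus strand), at all but 2 of 319 bases. These are C81T and G105A, counted from the 5′ end of the *BC002163* transcript, and the capitals mark each of them in turn:
BC002163: gcagaacagccctaCaagaacgccgctcg
Ndufs5: gcagaacagccctaTaagaacgccgctcg
BC002163: gctcggtgccacgcGtttgaaaaagagtg
Ndufs5: gctcggtgccacgcAtttgaaaaagagtg
*BC002163* was at 0.739, 0.651, 0.527, 0.473 and 0.118 CPM in the *Slc26a4*-/- groups of 2018 and between 12.5 and 89.3 CPM (median 27.8 CPM) in the *Slc26a4*+/+ groups. Levels in 2019 were 0.0491, 0.0825 and 0 CPM against 23.3, 34.9 and 63.8 CPM, again without overlap. It was not called (edgeR adjusted p = 0.0729), while DESeq2 called it with an adjusted p of 2.40e-12, the lowest over 11 other settings, the highest being 0.147. Its median share of the pair's counts was 42.4% and 26.8% in *Slc26a4*+/+ cells, 0 in both sets of *Slc26a4*-/- cells, 14.0% in *Slc26a4*+/- cells and 36.8% in *Slc26a4*+/+ cells of other run dates. *Tpm3-rs7* (chr14:113314608-113316754), which matches the tropomyosin gene *Tpm3* at all but 5 of 840 aligned bases, was at 0.260 against 54.98 CPM in 2018 and 0.791 against 68.4 CPM in 2019 (edgeR adjusted p = 0.434). Among all 61 pseudogenes measured, 5 were 2-fold or more higher and 6 were lower in both runs, that is 8.20% and 9.84%, against 6.37% and 5.77% of protein-coding genes.

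**Figure D4:**
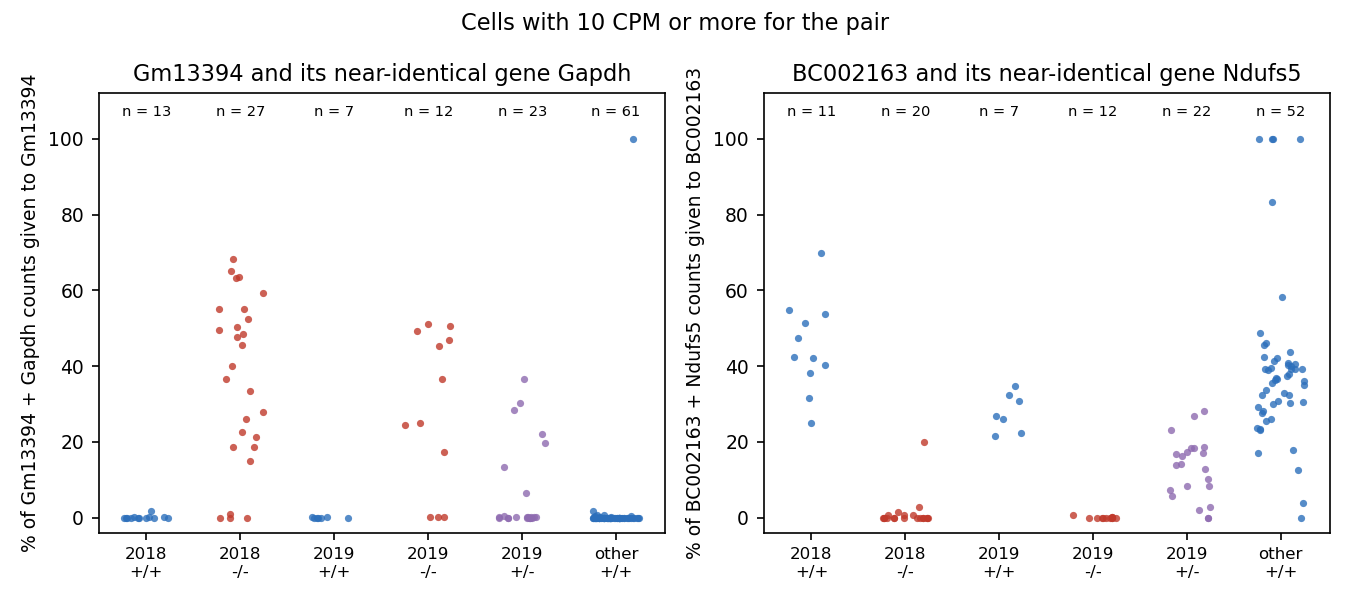
Share of the counts of a pair that was given to the copy (y axis, percent) in each IMC with 10 CPM or more for the pair, by run and genotype, for *Gm13394* with *Gapdh* and for *BC002163* with *Ndufs5*. *Gm13394* took a median of 40.1% and 30.8% in *Slc26a4*-/- cells and 0 in *Slc26a4*+/+ cells, and *BC002163* took 42.4% and 26.8% in *Slc26a4*+/+ cells and 0 in *Slc26a4*-/- cells.

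The other genes with the largest ratios did not pass the test over age groups. Among those higher in both runs, *Gbp10*, an interferon-induced GTPase, had means of 69.7 against 0.713 CPM and 87.7 against 0.379 CPM. *Gpd1*, the cytosolic glycerol-3-phosphate dehydrogenase, had 223.2 against 6.27 CPM and 91.5 against 0.465 CPM. Both were low in *Slc26a4*+/- cells, at 1.84 and 8.60 CPM. *Cryz*, a quinone reductase, *Zfp800*, a zinc finger gene, *Tars2*, the mitochondrial threonyl-tRNA synthetase, and *Slc9a3r1*, the scaffold NHERF1, completed the set, with log2 ratios of 5.25, 5.46, 5.86 and 5.03 in 2018 and 5.14, 5.09, 5.05 and 6.08 in 2019. Their edgeR adjusted p-values were 0.140, 0.144, 0.0969 and 0.0844.

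Those lower in both runs did not pass it either. *Col9a1*, a chain of collagen IX, had means of 0.315 against 48.97 CPM and 0.390 against 84.6 CPM, with 10 or more counts in 2 of 15 and 1 of 7 *Slc26a4*+/+ cells. *Matn4*, the matrix protein matrilin 4, had 5.39 against 116.4 CPM and 0.141 against 147.01 CPM, with 5 of 15 and 4 of 7 such cells. *Fads3*, of the fatty acid desaturase family, had log2 ratios of -3.77 and -5.52, and *Rnd3*, an atypical small GTPase, of -3.60 and -3.95. *Rab11fip1*, an effector of RAB11 in recycling endosomes, and *Ccdc171* rested on single age groups in 2018: their *Slc26a4*+/+ values were between 0 and 642 CPM (median 0.571 CPM) and between 0 and 272.8 CPM (median 0.370 CPM). *Mpo*, the myeloperoxidase of neutrophils, had a *Slc26a4*+/+ mean of 568 CPM in 2018 that was 0.571 CPM without the 3 cells that stand apart, and *Rapgef2*, an activator of RAP GTPases, had 80.7 CPM and 4.89 CPM. None of these genes was called.

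Most genes of lipid and sterol synthesis had higher means in *Slc26a4*-/- IMCs. Of 20 members measured, 6 (*Cyp51*, *Fasn*, *Fdft1*, *Fdps*, *Dhcr7* and *Sqle*) were 2-fold or more higher in both runs and none was lower, 14 were higher in both runs, and edgeR called 1, *Cyp51*. The median log2 ratio was 1.38 in 2018 and 0.92 in 2019, beside 0.03 and -0.08 for all genes, and 1.17 in 2018 without the 3 cells that stand apart. Without them 5 of the members were 2-fold higher in both runs. For each list that follows, the median of 2018 without the 3 cells stands in brackets, and a count is given without them where it differs. Each list stands beside 6.36% of all genes 2-fold higher and 5.81% lower in both runs, and 0.257% and 0.0677% called. The share of all genes that were higher, or lower, in both runs by any amount was not counted. Counts of that kind in a list therefore have no background here. *Cyp51*, the lanosterol demethylase of cholesterol synthesis (chr5:4081145-4104746), was at 107.6, 93.2, 47.5, 32.04 and 65.4 CPM in the *Slc26a4*-/- groups of 2018 and at most 0.137 CPM in a *Slc26a4*+/+ group. The run of 2019 gave 49.5, 130.2 and 84.7 CPM against 4.06, 0.664 and 0 CPM (edgeR adjusted p = 0.0153). *Slc26a4*+/+ IMCs of other run dates and *Slc26a4*+/- cells had 38.99 and 98.1 CPM, within the range of the *Slc26a4*-/- age groups. *Fasn*, fatty acid synthase, was at 239.2, 215.8, 208.8, 410.0 and 653 CPM in the *Slc26a4*-/- groups and between 0 and 69.8 CPM (median 0.469 CPM) in the *Slc26a4*+/+ groups of 2018. In 2019 it was at 91.4, 153.3 and 183.7 CPM against 41.1, 0 and 42.6 CPM. The groups did not overlap, yet the log2 fold change of 4.005 (SE 1.20) did not pass, with an edgeR adjusted p of 0.217. *Fdft1*, squalene synthase, had means of 204.6 against 62.3 CPM and 171.02 against 46.6 CPM, and was not called.

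**Figure D5:**
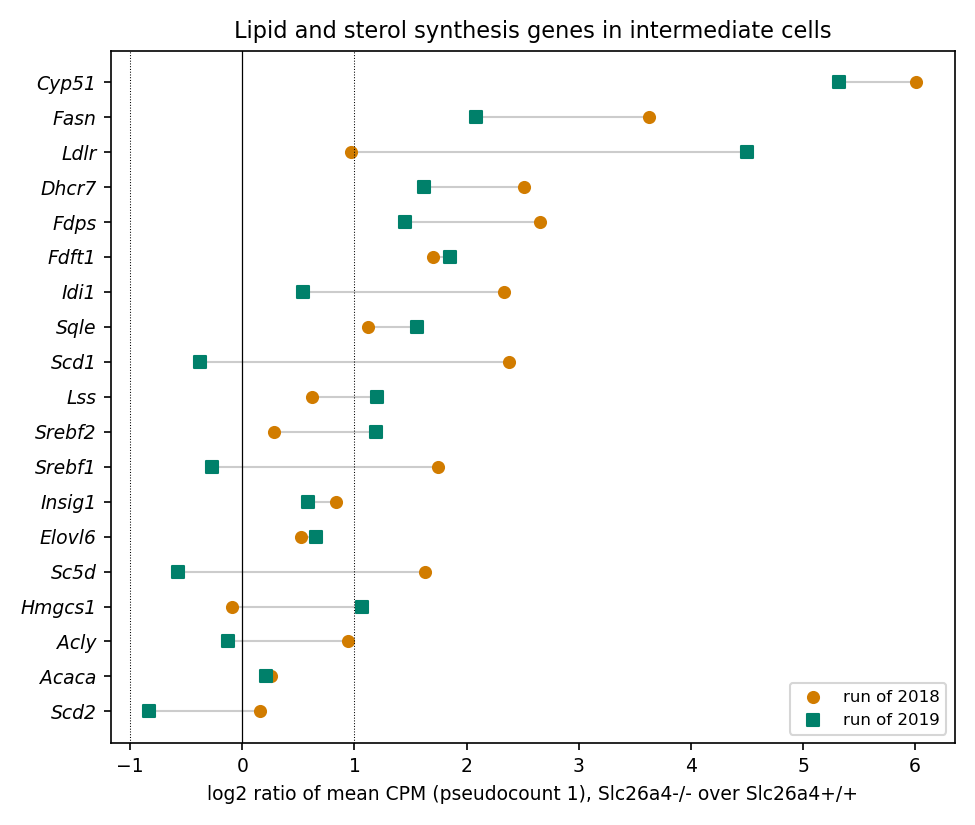
Log2 ratio of mean CPM (x axis, *Slc26a4*-/- over *Slc26a4*+/+, 1 CPM added) of 19 of the 20 lipid and sterol synthesis genes measured, in the run of 2018 (circles) and of 2019 (squares), with dotted lines at 2-fold. *Cyp51* has the largest ratios, 6.01 and 5.32, and 6 genes lie past 2-fold on the right in both runs.

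Of 19 pigment genes measured, 2 were 2-fold or more higher in both runs (*Rab38* and *Mcoln3*, an ion channel of endosomes and lysosomes), 0 were lower, and *Rab38* was called. The median log2 ratio was -0.09 (-0.38) and 0.09, or 0.99 and 0.54 with the difference of mean log2(CPM + 1). *Dct*, a melanin enzyme and 1 of the most abundant transcripts, was at means of 43652 against 27531 CPM in 2018 and 74916 against 36738 CPM in 2019, with a log2 fold change of 0.99 (SE 0.22, edgeR adjusted p = 0.0729). Without the 3 cells that stand apart its adjusted p was 0.0253, which makes the call, and it was between 0.0188 and 0.334 over 12 other settings. *Slc26a4*+/- cells had 70939 CPM of it, near the *Slc26a4*-/- cells of that run, and *Slc26a4*+/+ IMCs of other run dates had 28861 CPM. *Gpnmb*, a melanosome glycoprotein, had log2 ratios of 0.21 and 0.73, and *Tyr*, tyrosinase, of -0.24 and -0.17. Neither was called.

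No gene of the potassium and gap junction machinery was called. Of 12 measured, 0 were 2-fold higher and 1 was 2-fold lower in both runs, beside 6.36% and 5.81% of all genes past 2-fold and 0.257% and 0.0677% called. The list holds *Kcnj10*, which chose the cells. Over the other 11 genes the median log2 ratio was -0.18 (-0.42) and -0.08. *Atp1b1*, which encodes a subunit of the sodium pump, had log2 ratios of -0.21 and -0.21. *Gjb6*, connexin 30, had log2 ratios of -0.45 and -0.22. The edgeR log2 fold changes of both genes were -0.34 (SE 0.16) and -0.47 (SE 0.22), with adjusted p-values of 0.735 and 0.737.

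Genes of pH and bicarbonate handling, the process that pendrin serves in its own cells, gave 4 of 15 measured past 2-fold higher in both runs, 0 lower and none called. Of all genes 6.36% were higher, 5.81% lower and 0.257% called higher. The median log2 ratio was 0.59 (0.45) and 0.72, beside 0.03 and -0.08 for all genes. The 4 were *Slc9a3r1*, described above, the sodium-driven chloride bicarbonate exchanger gene *Slc4a8*, the anion exchanger gene *Slc4a3* and *Atp6v1b2*, a subunit of the proton pump. *Slc26a4*+/+ IMCs of other run dates had 45.9999 CPM of *Slc9a3r1*, between the *Slc26a4*-/- means of 36.1 and 73.8 CPM, and *Slc26a4*+/- cells had 125.1 CPM. For *Slc4a3* the values were 49.5 and 21.8 CPM, against *Slc26a4*-/- means of 45.01 and 30.5 CPM. *Slc4a8* and *Atp6v1b2* were lower in both of these sets of cells than in *Slc26a4*-/- cells of either run. *Slc4a8* was at 551 against 214.97 CPM and 202.7 against 72.2 CPM (edgeR adjusted p = 0.607). *Car2*, carbonic anhydrase 2, was at 283.5 against 449 CPM and 1008 against 1699 CPM (edgeR adjusted p = 0.682).

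Of 22 hypoxia and glycolysis genes measured, 13 were lower and 1 higher in both runs, 2 passed 2-fold lower and none was called, with medians of -0.29 (-0.43) and -0.70. With the difference of mean log2(CPM + 1) that list had a 2018 median of 0.47, beside 0.60 for all genes. *Ldhb*, a subunit of lactate dehydrogenase, was at 522 against 1821 CPM and 1032 against 2101 CPM (edgeR adjusted p = 0.0747, or 0.679 without the 3 cells that stand apart and between 0.0291 and 0.679 over 12 other settings). *Aldoa*, aldolase, and *Pfkl*, phosphofructokinase, had log2 ratios of -0.71 and -0.94 in 2018 and -1.11 and -1.43 in 2019, and *Bnip3*, a mitophagy receptor, of -4.15 and -3.61. All 12 mitochondrially encoded genes measured were lower in both runs, with medians of -0.97 and -0.89, or -0.68 in 2018 without the 3 cells. Of these 3 passed 2-fold lower in both runs, or 2 without the 3 cells. None was called or had an unadjusted p under 0.05, and the share of mitochondrial counts was low throughout, with medians of 0.10% to 0.28%. Of 68 cytosolic ribosomal protein genes, 33 were lower and 9 higher in both runs, with medians of -0.41 (-0.13) and -0.48, or 0.40 in 2018 with the difference of mean log2(CPM + 1). Of 25 oxidative stress genes, 3 passed 2-fold in each direction (2 lower without the 3 cells) and *Ucp2* was called. The medians of that list were -0.28 (-0.08) and -0.25, or 0.41 in 2018 with the difference of mean log2(CPM + 1). *Gstp1*, a glutathione transferase, had log2 ratios of 1.77 and 0.12.

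The thyroid hormone list gave 6 of 9 measured lower and 0 higher in both runs, with *Thrsp* called and medians of -0.41 (-0.48) and -0.98, or 0.64 in 2018 with the difference of mean log2(CPM + 1). Of 12 complement and antigen presentation genes, 2 passed 2-fold higher and 3 lower, *Cd55* was called, and the medians were 0.12 (0.08) and 0.05. Of 17 extracellular matrix genes, 2 were 2-fold higher and 4 lower and none was called, with medians of -0.31 (-0.33) and -0.42. With the difference of mean log2(CPM + 1) the medians of this list were 0.73 and -0.02. Of all genes 6.36% were 2-fold higher and 5.81% lower. Of 8 glia-related genes 1 passed 2-fold lower, *Mpzl2*, an adhesion protein of myelin zero type, at 1307 against 3378 CPM and 1333 against 3223 CPM (edgeR adjusted p = 0.0905). The medians of that list were -0.50 (-0.41) and -0.05, or 0.48 and 0.16 with the difference of mean log2(CPM + 1).

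The remaining lists held no call, beside 0.257% of all genes called higher and 0.0677% lower, and 6.36% and 5.81% past 2-fold in both runs. The growth factor and paracrine list holds *Met*, *Nrp2* and *Dkk3*, which chose the cells, and of its other 16 genes measured 0 passed 2-fold higher and 1 lower, with medians of -0.40 (-0.44) and -0.17. Of 16 interferon response genes none passed in either direction, with medians of 0.68 (0.42) and -0.17. Of 10 immediate early and heat shock genes 1 passed higher (2 without the 3 cells), with medians of 0.06 (0.67) and 0.69, and of 11 cell cycle and death genes 1 passed higher and 1 lower, with medians of 0.33 (0.30) and 0.54. Of 6 genes measured within 1 Mb of *Slc26a4* none passed, with medians of 0.17 (0.00) and -0.44.

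The study named 8 genes in *Slc26a4*-/- IMCs. It chose them on these samples, so that their directions here are not independent evidence. *Syt4* and *Thrsp* were called, as described above. *Alpl*, tissue-nonspecific alkaline phosphatase (chr4:137741733-137796384), was at 865, 96.95, 63.7, 662 and 62.4 CPM in the *Slc26a4*-/- groups of 2018 and between 297.6 and 2709 CPM (median 696 CPM) in the *Slc26a4*+/+ groups. Levels in 2019 were 595, 440.4 and 65.9 CPM against 1393, 1148 and 2862 CPM. The groups overlapped in 2018, where P24 and P31 were high, and not in 2019. The log2 fold change was -2.30 (SE 0.56, edgeR adjusted p = 0.0616), with an adjusted p of 0.0370 without the 3 cells that stand apart and between 2.69e-04 and 0.132 over 12 other settings. *Cav1*, caveolin 1, was at 529, 299, 328, 544 and 807 CPM in the *Slc26a4*-/- groups of 2018 and between 0.856 and 388 CPM (median 63.7 CPM) in the *Slc26a4*+/+ groups. The run of 2019 gave 1043, 989.7 and 812 CPM against 313, 377 and 67.6 CPM. It overlapped in 2018 through the *Slc26a4*+/+ group P34, and its edgeR adjusted p was 0.323, against 1.65e-05 with limma, the lowest over 12 other settings, and 0.576 in the highest. The complement gene *C4b*, the matrix gene *Fbln2* (fibulin 2) and *Cttnbp2*, which binds cortactin, had lower means in both runs, with log2 ratios of -2.90, -2.90 and -0.96 in 2018 and -2.01, -1.94 and -1.93 in 2019. *Aebp1*, a matrix-associated protein gene, had higher means, with log2 ratios of 0.79 and 2.05. None of these 4 was called.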

How the data were processed

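Single cells of the stria vascularis were sequenced by Smart-Seq2. Kallisto was run against GRCm38, and the authors deposited its estimated counts for 47752 genes. Each cell also has a deposited file of 98492 transcripts with TPM. Of the 298 columns of the gene table, 17 belong to no sample studied here and were not used. CPM were computed from the estimated counts, which were rounded after summing per age group. Sums of the TPM by gene served as an alternative. The rule took 151 of 281 cells as IMCs. Positions, biotypes and transcript sequences came from GENCODE M21 on GRCm38. Groups came from the labels, and run dates and collection codes from the profile names.

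Genes were tested with edgeR 4.0.16 (quasi-likelihood test, robust, TMM) in R 4.3.3, with DESeq2 1.42.0 and limma 3.58.1 as alternatives, after the steps were tested on simulated data. Figures used matplotlib 3.10.9 in Python 3.11.15. Named were, in each direction, the 12 genes with the largest ratios in both runs that were counted in 5 or more IMCs of each run and the 5 with the lowest p, besides the markers, *Slc26a4*, the 8 genes of the study and up to 4 genes per list. Other called genes, and *Gapdh*, *Ndufs5*, *Tpm3* and *Tyr*, were named after their values were seen. The members and all lists were chosen with earlier results of these data known, and leaving out the 3 cells that stand apart was added after seeing the data. Cells were picked singly, and no doublet caller was run. A few genes that the rule named are not reported here.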

Additional observations from a re-analysis of the deposited data

Results flagged for a closer look

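By Dixon's test at 95% on log2(CPM + 1), 28 values lay far from the others of their genotype and run, each in a different set of age groups, which is 20.9% of the sets tested over the genes named above. Chance gives about 1 in 20 sets only for normal values of genes not chosen on these data. Many genes here were chosen for large ratios in the same age groups, and in several sets all other values were 0. The share of 20.9% is therefore not compared with chance. All lay in the run of 2018, 21 in *Slc26a4*+/+ and 7 in *Slc26a4*-/- groups. The run of 2019 held only 3 age groups of each genotype, and the lack of flagged values says nothing about that run. For example, *Col9a1* was not flagged there, at 294.5 CPM in the *Slc26a4*+/+ group P29 and 0.664 and 0.546 CPM in the others. The 3 cells that stand apart are in the *Slc26a4*+/+ groups P23, P34 and P40.

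The *Slc26a4*+/+ group P23 was high for *Gbp10* (2.06 CPM, the others between 0 and 0.127 CPM), *Tmed1* (3.33 CPM, the others between 0 and 0.370 CPM), *Armc5* (2.19 CPM, the others between 0 and 0.260 CPM), *Mpo* (1702 CPM, the others between 0 and 1.94 CPM), *Fasn* (69.8 CPM, the others between 0 and 0.779 CPM), *Rab38* (4.48 CPM, the others between 0 and 0.390 CPM), *Pef1* (1.14 CPM, the others at 0) and *Kcnk13* (0.371 CPM, the others at 0). The *Slc26a4*+/+ group P24 was high for *Zfp800* (8.502 CPM, the others between 0 and 0.137 CPM) and *Tars2* (4.25 CPM, the others between 0 and 0.372 CPM). The *Slc26a4*+/+ group P34 was high for *Rab11fip1* (642 CPM, the others between 0 and 3.22 CPM). The *Slc26a4*+/+ group P40 was high for *Ccdc171* (272.8 CPM, the others between 0 and 2.23 CPM), *Aldoa* (14825 CPM, the others between 2722 and 4391 CPM) and *Nfkbie* (0.347 CPM, the others at 0). The *Slc26a4*+/+ group P42 was high for *Cyp51* (0.137 CPM, the others at 0), *Gpd1* (28.8 CPM, the others between 0 and 1.51 CPM), *Col9a1* (242.7 CPM, the others between 0 and 1.14 CPM), *Cd55* (0.127 CPM, the others at 0) and *Taf4b* (0.127 CPM, the others at 0). The *Slc26a4*+/+ group P34 was low for *Nrp2* (301.3 CPM, the others between 1997 and 3758 CPM) and *Dct* (12939.9 CPM, the others between 26241 and 34483 CPM).

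The *Slc26a4*-/- group P24 was high for *Tpm3-rs7* (1.48 CPM, the others between 0 and 0.234 CPM). The *Slc26a4*-/- group P29 was high for *Ccdc171* (3.51 CPM, the others between 0 and 0.497 CPM) and *Bnip3* (7.74 CPM, the others between 0 and 0.434 CPM). The *Slc26a4*-/- group P31 was high for *Tmed1* (269.9 CPM, the others between 55.7 and 84.2 CPM). The *Slc26a4*-/- group P44 was high for *Mpo* (12.5 CPM, the others between 0.609 and 0.951 CPM) and *Ptgis* (0.118 CPM, the others at 0). The *Slc26a4*-/- group P44 was low for *Slc9a3r1* (0 CPM, the others between 29.99 and 60.4 CPM).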

How the results depend on the processing

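Numbers of genes are given here as shares of the genes tested in that setting. By run date, 6.36% of genes were 2-fold or more higher and 5.81% lower in both runs. These became 17.3% and 1.77% with the difference of mean log2(CPM + 1), 10.4% and 6.31% of 10588 genes from a mean of 1 CPM, 3.36% and 3.81% of 3069 genes from 50 CPM, and 4.45% and 3.76% with a pseudocount of 10 CPM. Age group means, other IMC leads, ages P23 to P34, TPM and leaving out the 3 cells that stand apart gave 6.36% to 7.36% and 4.92% to 6.29%, and leaving out 1 age group gave 5.94% to 8.31% and 5.51% to 6.89%. Over age groups, edgeR called 0.257% of genes higher and 0.0677% lower. DESeq2 called 2.77% and 0.826%, limma 3.79% and 0.311%, genes from 1 CPM gave 1.37% and 0.293%, and genes from 50 CPM gave 0.163% and 0.130%. Age groups of 2 or more cells gave 0.189% and 0.135%, and ages P23 to P34 gave 0.180% and 0.0416%. The run of 2018 alone gave 0% and 0%, the run of 2019 alone 0% and 0%, and both hold fewer age groups. A collection code shared by both genotypes as a block, possible only in the run of 2018, gave 2 genes (0.0271%) and 0% over 10 sums of cells, and the same cells without the block gave 2 in all. Leaving out 1 age group gave 0.189% (without *Slc26a4*-/- P33 of 2019) to 0.555% (without *Slc26a4*+/+ P23 of 2018) and 0.0271% (without *Slc26a4*-/- P33 of 2019) to 0.149% (without *Slc26a4*+/+ P24 of 2018). Other settings gave 0.217% to 0.285% and 0.0541% to 0.0812%. Except where the construction shows it, the cause was not tested.

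Ratios of named genes changed sign in 4 cases, each with 1 age group left out. The 2018 log2 ratio then ranged from -8.32 to 1.23 for *Mpo*, from -4.90 to 0.397 for *Ccdc171* and from -5.99 to 0.0516 for *Rab11fip1*, and the 2019 ratio of *Rab11fip1* from -4.64 to 2.02. *Mpo* fell under the 10 CPM minimum without the 3 cells. The labels give no replicate number that the genotypes share, so the block by collection code was the only paired fit run, and ages that both genotypes share in a run were not used as a block. Depth limits genes near 10 CPM.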
